A study of Mus musculus with 16 samples.

Results

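The 10 genes described here are 5 members of the Hoxa cluster (Hoxa3, Hoxa5, Hoxa7, Hoxa9 and Hoxa10) and 5 of the Hoxb cluster (Hoxb2, Hoxb3, Hoxb4, Hoxb5 and Hoxb6), taken by name from the 46078 genes of the deposited count table. They were followed across pools of 30 haematopoietic stem cells (HSCs), defined by the sort as LSK CD48-CD150+, from untreated C57/Bl6 mice and sequenced after Smart-seq2 amplification. LSK cells are lineage-negative, Sca1-positive and cKit-positive cells, the bone marrow (BM) fraction that holds stem and multipotent cells, and CD150 without CD48 enriches it for HSCs. Cells came from the bone fraction of tibia, femur and humerus (endosteal BM) or from the marrow fraction (central BM) of Gfra2 WT mice or of Gfra2KO mice, written Gfra2-/- below, and the labels give no age and no sex. The study compared these 4 groups to ask whether HSCs keep their gene programme in mice whose cholinergic nerves are deficient. GFRα2, the product of Gfra2, is a receptor for the nerve growth factor neurturin, and the Gfra2-/- mice lack it in the whole animal, so that the genotype is not confined to nerves or to HSCs. Each group had 4 libraries except central Gfra2-/- with 3, which makes 15, named A to D within a group as the table orders them.

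HOX proteins are transcription factors that bind DNA through a homeodomain, and their genes lie in 4 clusters whose order on the chromosome follows the body axis along which they act in the embryo. In blood, genes of the Hoxa and Hoxb clusters are most active in stem and progenitor cells and are switched off as cells mature. HOX proteins bind DNA together with PBX and MEIS cofactors, MLL (Kmt2a) and its partners keep the clusters active, and Polycomb complexes silence them.

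Depth differed between the groups, and levels are given below as CPM, the count scaled to library size. Reads on genes ranged from 4416648 to 14003634 in endosteal WT libraries, from 826487 to 3367289 in central WT libraries, from 8519094 to 18550008 in endosteal libraries labelled Gfra2-/- and from 7649803 to 14716308 in central ones. Central WT libraries A (1230252 reads) and C (826487 reads) lay under the quality cut-offs as applied here. These asked for more than 1500000 reads on genes and more than 8500 genes with at least 10 reads. The study set its read cut-off on uniquely mappable reads instead, and its sample lists hold both libraries. The floor used here for a gene without a read, 3 reads, was worth 3.63 CPM before TMM scaling in central WT library C and 0.162 CPM in endosteal Gfra2-/- library B. Such floors cover counting error only, because the reads carry no molecular identifiers.

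Gfra2 itself had few reads in WT libraries and could not check the genotype well. Endosteal WT libraries A to D held 0, 0, 0 and 1 Gfra2 reads, and central WT libraries held 0, 0, 4 and 0. Endosteal libraries labelled Gfra2-/- held 2, 47, 1 and 9 reads, and central ones held 0, 1 and 0. The 47 reads of endosteal library B and the 9 reads of endosteal library D were more than any WT library held. Counts per gene do not show where in Gfra2 these reads lie, so they cannot decide whether the label holds. The text therefore speaks of libraries labelled Gfra2-/-, and directions between the genotypes rest on these labels.

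The labelled cell type was checked against its markers. All 15 HSC markers had reads in every library, with a mean of 697 CPM for Kit (the stem cell factor receptor) and 562 CPM for Meis1 (a HOX cofactor). This list also holds Hoxb5, Meis1 and Mllt3, which are described below. Genes that the sort selects against were low, with means of 5.30 CPM for Cd48, 0.601 CPM for Itgam, 0.328 CPM for Cd3e and 0.0136 CPM for Ly6g. Markers of other cells were still present in single libraries, and their values stand beside the results at the end.

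The Hoxa members lie on the minus strand of chromosome 6 and the Hoxb members on the plus strand of chromosome 11 (GRCm38, GENCODE M21 annotation, all protein coding). Hoxa3 spans chr6:52169062-52213336, Hoxa5 chr6:52201754-52204587, Hoxa7 chr6:52214491-52221854, Hoxa9 chr6:52223100-52231089 and Hoxa10 chr6:52231197-52240854. In the second cluster, Hoxb6 spans chr11:96292476-96301569, Hoxb5 chr11:96303336-96306121, Hoxb4 chr11:96318267-96321638, Hoxb3 chr11:96323326-96347930 and Hoxb2 chr11:96350525-96354012. The stretch of 60 coding bases below encodes the end of the homeodomain that reads DNA. It is shown for Hoxb2, the member with the highest log2 fold change between the genotypes in endosteal HSCs, and for Hoxa5, the member it shares fewest bases with, because paralogs alike in sequence could share reads. Each sequence runs 5′ to 3′ on the coding strand of a GENCODE transcript, and capitals mark bases that differ from the most common base among the 10 genes at that place:
Hoxb2: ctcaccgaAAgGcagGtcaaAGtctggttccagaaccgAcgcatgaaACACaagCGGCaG
Hoxa5: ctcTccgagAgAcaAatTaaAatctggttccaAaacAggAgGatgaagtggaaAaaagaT

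Hoxa5 and Hoxb2 shared 38 of the 60 bases, the fewest of any pair of members, while Hoxa3 and Hoxb3 shared the most, 58, and Hoxb4 shared 55 with Hoxa7 and with Hoxb5. Only 3 windows of read length (50 bases) in the member transcripts were found unchanged in another Hox gene, all between Hoxb4 and Hoxa6. Antisense and host genes were a larger source of uncertainty, because reads were counted without regard to strand and a base inside 2 genes cannot be assigned. Of the exon bases of Hoxb3, 52.93% lay inside exons of other genes, all of them in Hoxb3os, and the share was 27.32% for Hoxb2 (Hoxb3os), 27.12% for Hoxa3, 20.38% for Hoxa7 (Hoxaas3), 3.589% for Hoxb5 and 1.523% for Hoxa9 (Mir196b). Hoxa5, Hoxa10, Hoxb4 and Hoxb6 shared no exon base.

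The Hoxa members gave most of the signal in every library. As levels per length, CPM per kilobase (kb) of exon, they made up between 81.8% (central Gfra2-/- library A) and 98.3% (endosteal WT library A) of the 10 genes' sum. Hoxa9, which supports normal stem and progenitor function and drives leukaemia when overexpressed, came first by the mean over all libraries. Its level was 21.1 ± 9.53 CPM per kb (mean ± SD, n = 15 libraries). Hoxa10, which expands progenitors when overexpressed, followed with 18.9 ± 15.99, Hoxa5, which acts in the choice between erythroid and myeloid fate, with 16.2 ± 14.3, and Hoxa7 with 10.9 ± 5.77 CPM per kb. Hoxb5, a marker of long-term HSCs, was the first Hoxb gene by the mean over all libraries, at 3.63 ± 3.15 CPM per kb. Hoxa3, a gene of pharyngeal and thymus patterning, had 1.95 ± 2.61 and Hoxb4, which expands HSCs when overexpressed, 1.94 ± 1.65 CPM per kb. Hoxb6 (1.13 ± 1.57), Hoxb2 (0.933 ± 1.53) and Hoxb3 (0.539 ± 0.786 CPM per kb) came last. The order differed between the groups. Hoxa10 came first in endosteal WT libraries (23.9 against 18.1 CPM per kb for Hoxa9). Hoxa5 came first in central WT (27.8 against 26.8 for Hoxa9) and in central Gfra2-/- libraries (17.3 against 15.7). Among the Hoxb genes, Hoxb4 led in central WT libraries (4.01 against 2.36 for Hoxb5) and Hoxb2 in endosteal Gfra2-/- libraries (2.31 against 2.13).

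Most neighbours in the order over all libraries could not be separated. Hoxa9 lay above Hoxa10 in 11 of 15 libraries, by 2.22 ± 15.5 CPM per kb (SD of the difference), Hoxa10 above Hoxa5 in 9 and Hoxa5 above Hoxa7 in 9. Hoxa7 lay above Hoxb5 in 12 of 15 libraries, and its mean difference of 7.32 CPM per kb was the only one between neighbours that exceeded its SD, 7.10. Hoxa3 and Hoxb4 differed by 0.00692 ± 2.35 CPM per kb. With the longest transcript as the length, Hoxa3 (4.53 CPM per kb) passed above Hoxb5, and when only unshared exon bases were used, a length chosen after seeing the data, Hoxb3 (1.14), Hoxb2 (1.28) and Hoxb6 (1.13 CPM per kb) changed places.

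**Figure D1:**
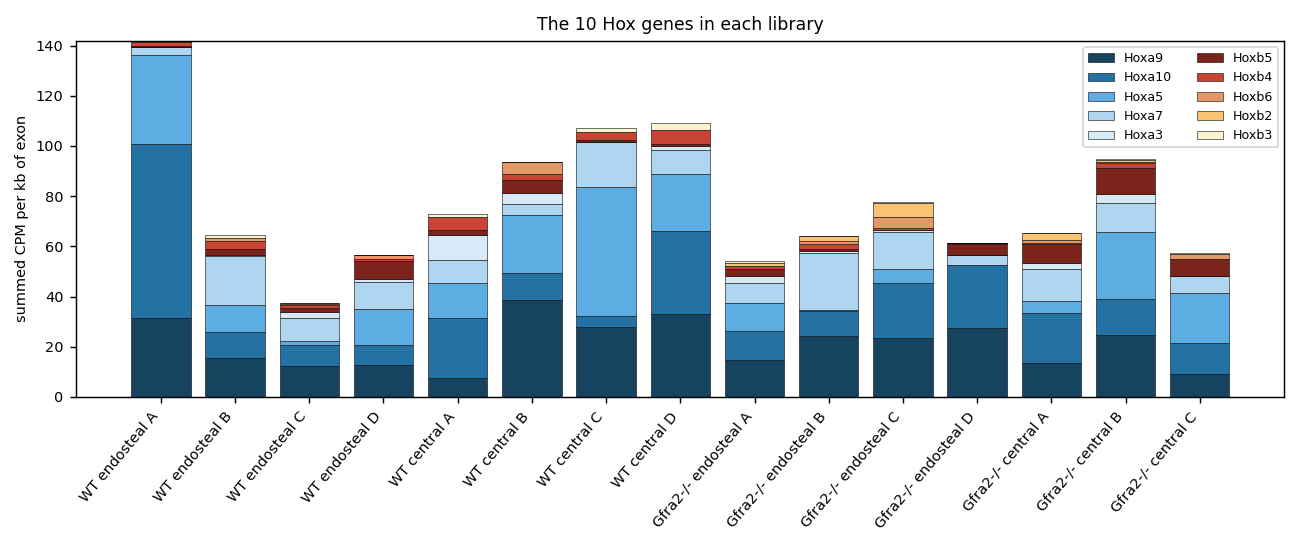
Bars give the level per length (CPM per kb of exon) of each of the 10 Hox genes in each of the 15 libraries, stacked from Hoxa9 at the base, with Hoxa genes in blue and Hoxb genes in red to yellow. Blue takes at least 81.8% of every bar, and the tallest bar, endosteal WT library A, is mostly Hoxa10 and Hoxa5 with Hoxa9.

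Detection differed between the members. Hoxa7, Hoxa9 and Hoxa10 had at least 10 reads in all 15 libraries, Hoxa5 in 13, Hoxb4 in 12, Hoxa3 in 11, Hoxb5 in 10, Hoxb6 in 8, Hoxb2 in 7 and Hoxb3 in 4. Counts of the low genes moved from none to many between libraries of one group, as for Hoxa3 in central WT libraries (66, 83, 0 and 28 reads) and Hoxb6 in endosteal libraries labelled Gfra2-/- (0, 41, 75 and 0 reads). The coefficient of variation between libraries of a group that edgeR estimated beyond counting error was 0.496 for Hoxa9, 0.706 for Hoxa7, 0.714 for Hoxa10 and 1.02 to 1.99 for the other members. Its median over the 15416 genes was 0.932. When every library was thinned to the depth of the shallowest (826487 reads), between 2 and 6 members kept 10 reads, with medians of 4.5 in endosteal WT, 5 in central WT, 3.5 in endosteal Gfra2-/- and 6 in central Gfra2-/- libraries.

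The remaining 29 Hox genes were far less covered. Of these, 9 had no read in any library, 11 had reads but fewer than 10 in every library, and 9 reached 10 reads at least once. Hoxa6, next to Hoxa5 in the cluster, reached 10 reads in the most libraries, 9. Its mean was 4.96 CPM, followed by Hoxa2 (1.998 CPM) and Hoxa4 (0.148 CPM) among the remaining Hoxa genes. Among the remaining Hoxb genes, Hoxb7 had a mean of 3.42 CPM, Hoxb9 0.969 CPM and Hoxb8 0.251 CPM. Hoxb7 and Hoxb9 were high in few libraries, such as Hoxb9 with 14.2 CPM in central Gfra2-/- library A and 0 in 13 libraries, and Hoxb8 had no more than 2 reads in any library. No Hoxd gene reached 10 reads in a library, and Hoxd1 had 1 or more reads in 14 libraries with a mean of 0.768 CPM, while Hoxd8 had 0.0226 and Hoxd9 0.0109 CPM. Of the Hoxc genes, Hoxc6 had a mean of 1.79 CPM, Hoxc8 of 1.53 CPM and Hoxc9 of 0.701 CPM.

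**Figure D2:**
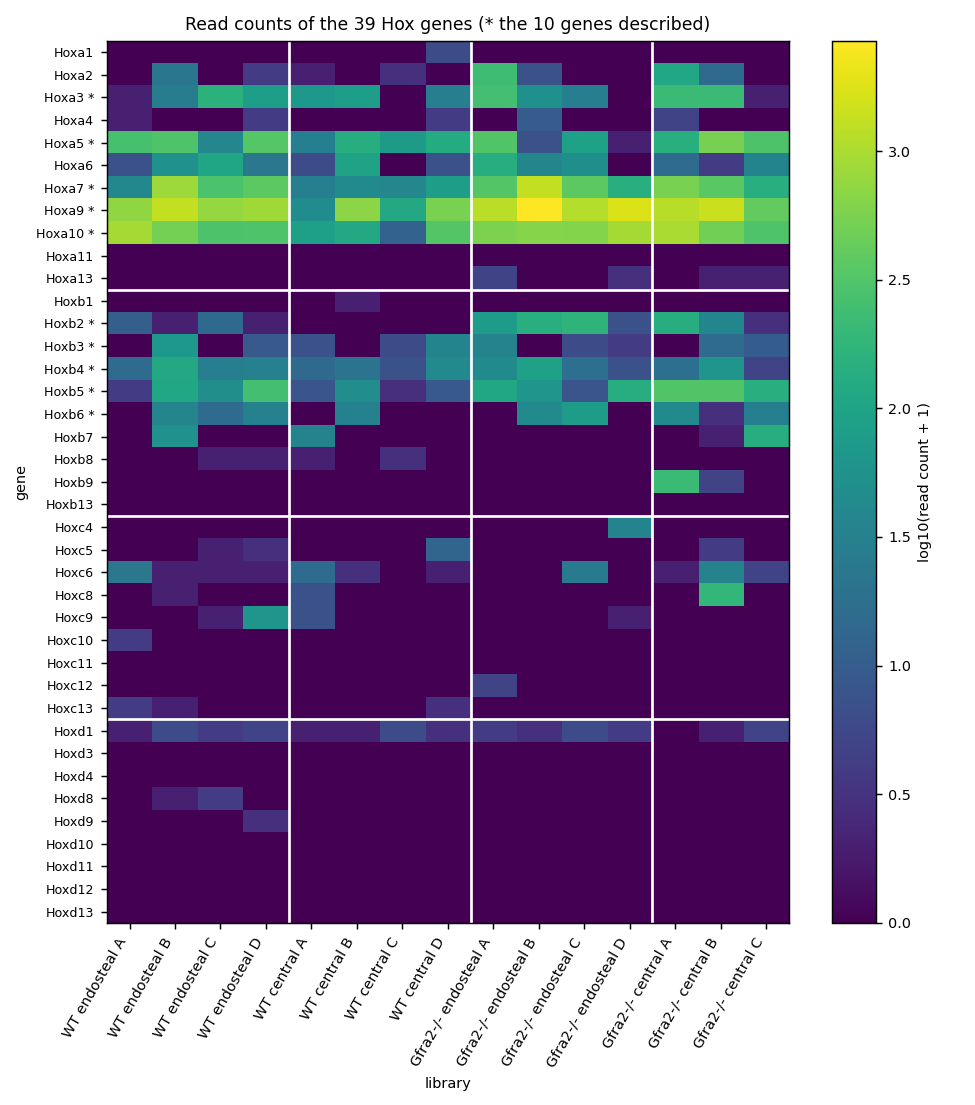
Colour gives log10 of the read count plus 1 for all 39 Hox genes (rows, in cluster order, the 10 members marked with an asterisk) in the 15 libraries (columns, by group). Hoxa5, Hoxa7, Hoxa9 and Hoxa10 form the bright rows, the Hoxb block is patchy and the Hoxd block is nearly empty.

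The first comparison asked whether HSCs of endosteal and central BM differ in WT mice. No member passed in this comparison, and the levels of Hoxa9 overlapped. Hoxa9 had 176, 86.9, 69.0 and 71.9 CPM in the 4 endosteal libraries and 41.6, 215, 156 and 185 CPM in the 4 central ones. Both the lowest and the highest value were thus central, and the means were 101 ± 50.6 and 149 ± 75.7 CPM (SD, n = 4 each), which edgeR put at a log2 fold change of -0.58 (SE 0.53, edgeR quasi-likelihood test, FDR = 0.818).

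Hoxa10 was set by a single library. It had 226, 34.0, 26.6 and 25.2 CPM in endosteal WT libraries and 77.9, 36.1, 14.7 and 108 CPM in central ones. Its log2 fold change of 0.38 (SE 0.84, edgeR FDR = 0.932) became -1.10 without endosteal library A. Hoxb4 had 3.66, 7.80, 2.54 and 2.45 CPM in endosteal and 12.7, 5.91, 8.04 and 14.5 CPM in central WT libraries, and only 1 endosteal library reached into the central range (log2 fold change -1.34, SE 0.96, edgeR FDR = 0.762). Hoxa3 and Hoxb3 had lower means in endosteal WT libraries, 5.80 ± 6.46 against 23.7 ± 26.3 CPM and 1.28 ± 2.15 against 5.90 ± 4.71 CPM (SD, n = 4 each). Their SDs were close to the means or above them, and edgeR gave log2 fold changes of -2.05 (SE 1.42) and -2.19 (SE 1.61).

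Of the 8 members that passed the filter on low counts, 3 had a positive and 5 a negative log2 fold change, with a median of -0.71 beside 0.03 over all 11181 genes tested. At an unadjusted p under 0.05 edgeR called 0 members, and it called 7.89% of all genes. At an FDR under 0.1 it called 0 genes in all (0.0%). The CPM of the groups did not overlap for 0 of the 8 tested members and for 6.36% of all genes. Hoxb2 and Hoxb6 were not tested. With scaling to the spike-in RNAs all genes had a median log2 fold change of 1.58 and the members one of 0.41. On that scale 5 members were positive and 3 negative, and the 4 that changed sign were Hoxa9 (0.24), Hoxa10 (-0.022), Hoxa3 (0.58) and Hoxa5 (0.60).

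In libraries labelled Gfra2-/-, the compartments did not overlap for 1 of 10 members, Hoxb5, and for 7.34% of all genes. It had 7.71, 3.13, 0.810 and 12.1 CPM in the 4 endosteal libraries and 20.8, 29.3 and 18.7 CPM in the 3 central ones. Every central library lay above every endosteal one, and the means were 5.94 ± 5.01 (SD, n = 4) and 22.9 ± 5.60 CPM (SD, n = 3). The log2 fold change was -1.95 (SE 1.02), which did not pass in the edgeR test across all genes (FDR = 0.999). On the log2(CPM + 1) scale the endosteal minus central difference was -2.68 among the libraries whose share of spike-in reads was at least 0.5% and -0.593 between the single library of each group under it, a difference without replicates. The 15 HSC markers, a list that holds Hoxb5, summed to 4540 to 5268 CPM in central and 3713 to 4268 CPM in endosteal libraries labelled Gfra2-/-, also without overlap. Of them, Mllt3 and Procr were called lower in endosteal libraries at an unadjusted p under 0.05, beside 4.79% of all genes. None passed the FDR, and the median log2 fold change of the 15 markers was -0.48 beside 0.03 over all genes. Between the genotypes in central HSCs the marker sums overlapped, with 3123 to 4908 CPM in WT libraries.

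Hoxa5 had 21.3, 0.303, 10.4 and 0.0876 CPM in endosteal and 9.31, 50.1 and 37.8 CPM in central libraries labelled Gfra2-/-. The 0.303 and 0.0876 CPM stood for 6 reads and 1 read, in libraries of 18550008 and 11985523 reads. Its log2 fold change was -2.02 (SE 1.53, edgeR FDR = 0.999). Hoxa9 had 81.1, 136, 130 and 153 CPM in endosteal and 74.9, 137 and 51.8 CPM in central libraries, so that the groups overlapped (log2 fold change 0.51, SE 0.41, edgeR FDR = 0.999). All 10 members were tested, 6 with a positive and 4 with a negative log2 fold change, and their median was 0.09 beside 0.03 over 13860 genes. The edgeR test called 0 members and 4.79% of all genes at an unadjusted p under 0.05, and 0 genes (0.0%) at an FDR under 0.1. Hoxb5 was the 1 member of 10 whose groups did not overlap, against 7.34% of all genes. With scaling to the spike-in RNAs 3 members were positive and 7 negative, with a median of -0.85 beside -0.46 over all genes, and Hoxa7, Hoxb4 and Hoxb6 changed sign.

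In central HSCs, the groups did not overlap for 2 of 8 tested members, Hoxb5 and Hoxb4, and for 12.4% of all genes. Neither member passed the test. Hoxb5 lay at 20.8, 29.3 and 18.7 CPM in libraries labelled Gfra2-/- against 6.34, 14.6, 2.68 and 2.70 CPM in WT libraries, without overlap (log2 fold change 1.75, SE 1.08, edgeR FDR = 0.698). Its difference on the log2(CPM + 1) scale was 1.78 among libraries at or above that share of spike-in reads, and 2.42 between the single library of each group under it. Hoxb4 lay the other way, at 1.11, 5.67 and 0.514 CPM against 12.7, 5.91, 8.04 and 14.5 CPM (log2 fold change -2.11, SE 1.32, edgeR FDR = 0.703). The nearest libraries, 5.67 and 5.91 CPM, were almost level, and the WT values stood for 14, 19, 6 and 43 reads.

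Hoxb2, which patterns the hindbrain in the embryo, had no read in any of the 4 central WT libraries and 136, 37 and 2 reads in the 3 central libraries labelled Gfra2-/-. With 0 of 8442967 reads, the central WT group allows up to 0.355 CPM (3 reads over the group), and the 5.39 CPM of the Gfra2-/- group, 175 of 32445855 reads, was at least 15.2-fold higher. This bound covers counting error only and comes mostly from library A. Hoxb2 did not pass the filter on low counts and was not tested. Hoxb3 had 5.90 ± 4.71 CPM in WT (SD, n = 4) and 0.858 ± 0.754 CPM in Gfra2-/- libraries (SD, n = 3; log2 fold change -2.79, SE 1.81, edgeR FDR = 0.715). Hoxa9 had 149 ± 75.7 and 87.8 ± 43.9 CPM (log2 fold change -0.80, SE 0.59, edgeR FDR = 0.760).

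Of the 8 members tested in central HSCs, 1 had a positive and 7 a negative log2 fold change, with a median of -0.75 beside 0.03 over 11772 genes. The edgeR test called 0 members at an unadjusted p under 0.05 and 8.73% of all genes, and at an FDR under 0.1 it called 6 genes (0.051%), with no member among them. With scaling to the spike-in RNAs the medians were 1.75 over all genes and 0.55 over the members, of which 6 were positive and 2, Hoxb3 and Hoxb4, negative. The 5 Hoxa members, among them Hoxa9 (0.25), changed sign. The groups did not overlap for 2 of the 8 tested members, Hoxb5 and Hoxb4, against 12.4% of all genes.

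In endosteal HSCs, Hoxb2 had the highest log2 fold change of the members between the genotypes and did not pass the test. WT libraries had 2.44, 0.0666, 1.27 and 0.0818 CPM, from 10, 1, 14 and 1 reads, and libraries labelled Gfra2-/- had 5.07, 7.12, 19.6 and 0.526 CPM, from 75, 141, 169 and 6 reads. Gfra2-/- libraries A, B and C exceeded every WT library, and library D lay inside the WT range. The log2 fold change was 3.11 (SE 1.47, edgeR FDR = 0.743). Hoxa5 had 8.03 ± 10.1 CPM in Gfra2-/- and 29.4 ± 26.7 CPM in WT libraries (SD, n = 4 each; log2 fold change -1.87, SE 1.46, edgeR FDR = 0.851). Hoxa9 had 125 ± 30.8 and 101 ± 50.6 CPM (SD, n = 4 each; log2 fold change 0.32, SE 0.39, edgeR FDR = 0.912). Of 9 members tested, 4 had a positive and 5 a negative log2 fold change, with a median of -0.01 beside 0.03 over 12970 genes. The edgeR test called 0 members and 6.69% of all genes at an unadjusted p under 0.05, and 0 genes (0.0%) at an FDR under 0.1. The groups overlapped for all 9 tested members, and 6.24% of all genes had groups that did not. With scaling to the spike-in RNAs 3 members were positive and 6 negative, with a median of -0.89 beside -0.28 over all genes, and Hoxa7, Hoxa10 and Hoxb6 changed sign.

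**Figure D3:**
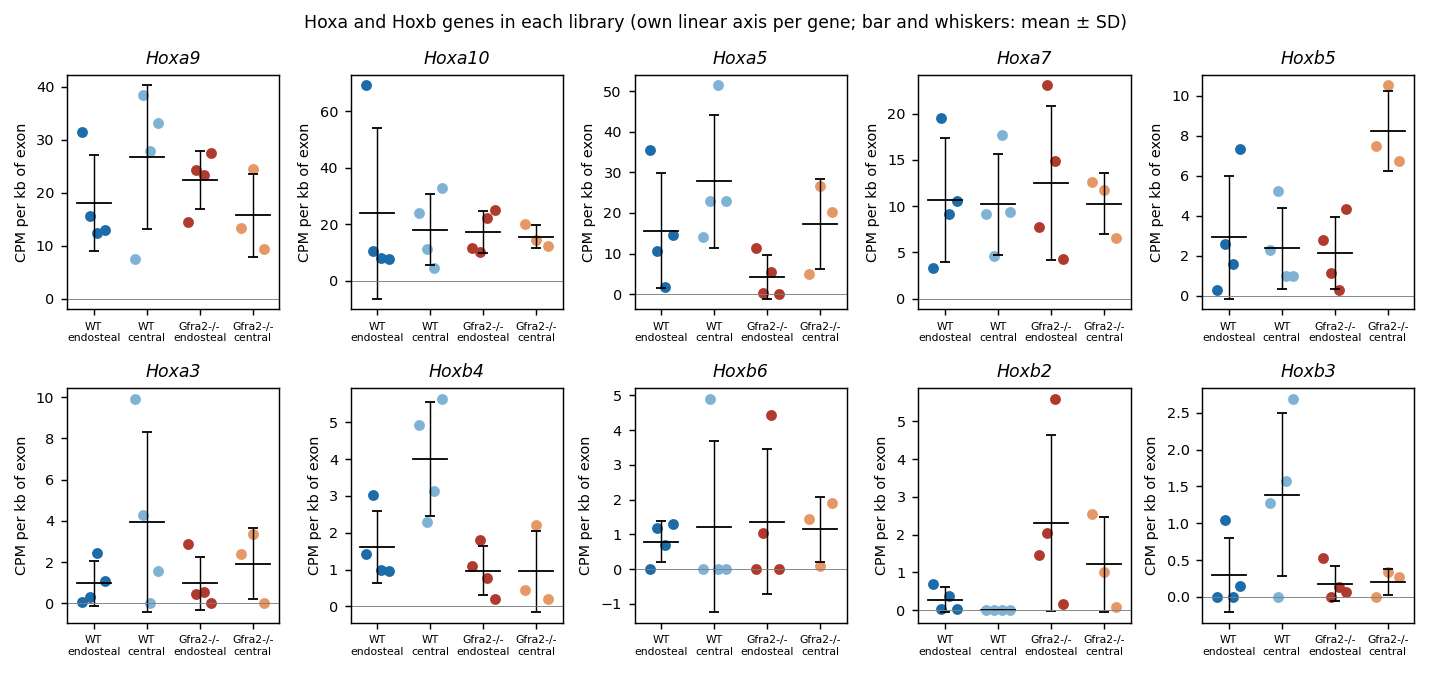
Each panel plots one Hox gene by group, with each library as a point in CPM per kb of exon, the mean as a bar and the SD as whiskers. The 3 central Gfra2-/- libraries of Hoxb5 (18.7 to 29.3 CPM before division by length) stand above the central WT and endosteal Gfra2-/- libraries, and Hoxb2 lies at 0 in all 4 central WT libraries.

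**Figure D4:**
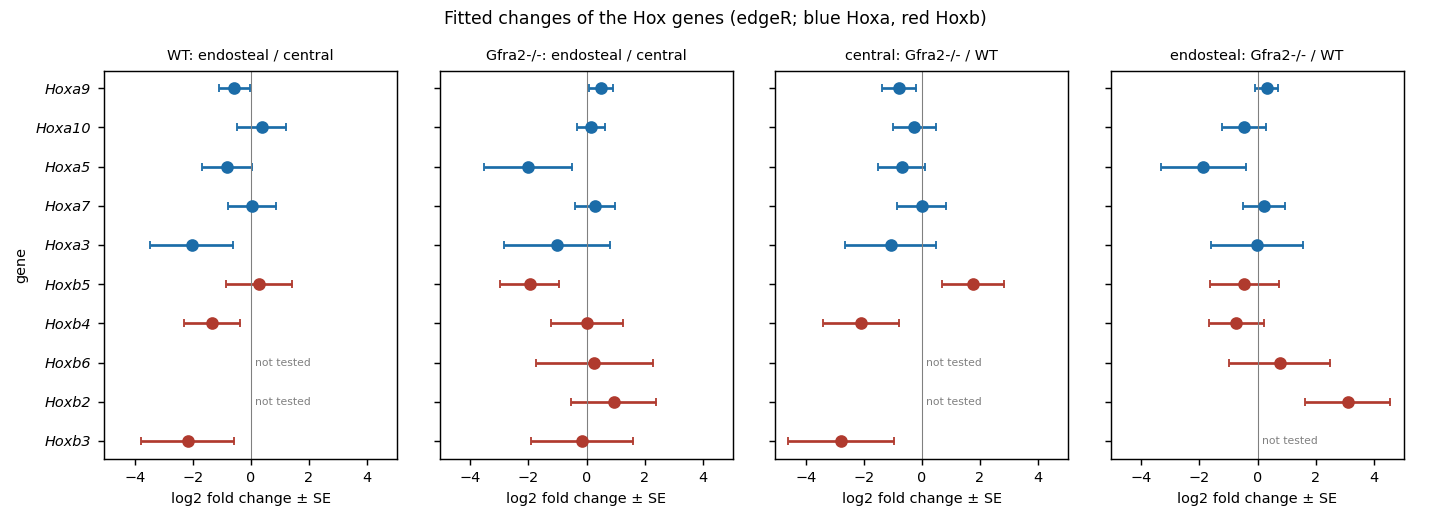
Points give the edgeR log2 fold change and whiskers its SE for each member in the 4 comparisons between groups, and members that did not pass the filter on low counts have no point. Whiskers of Hoxa9 are the shortest in each panel, and no member passed an FDR of 0.1.

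Whether the genotype changed the compartment difference was tested with an interaction term in the fit of the 15 libraries. Hoxa9 had a difference of 1.08 between the log2 fold changes (SE 0.71, edgeR FDR = 0.792) and Hoxb5 one of -2.24 (SE 1.64, edgeR FDR = 0.813). Hoxb2 lay furthest from 0, at -5.22 (SE 3.13, edgeR FDR = 0.777), a fitted value that depends on the prior count. The test called 0 of 10 members and 6.97% of 15416 genes at an unadjusted p under 0.05, and 0 genes (0.0%) at an FDR under 0.1, so that no difference between the genotypes in their compartment effect was detected for a member.

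With both compartments in one fit and compartment as a term, a comparison added after the counts had been seen, Hoxb2 was the member furthest from 0. Its log2 fold change between libraries labelled Gfra2-/- and WT was 4.204 (SE 1.25, edgeR FDR = 0.171), a fitted value that depends on the prior count because central WT libraries held no read. It did not pass the FDR in edgeR, and the DESeq2 test gave an FDR of 0.0555. Hoxb2 was the 1 of 10 members called at an unadjusted p under 0.05, as were 11.5% of 13789 genes. Only 2 endosteal and 0 central WT libraries reached 10 reads of Hoxb2, and it was not tested between the WT compartments. It passed the filter on low counts here through the Gfra2-/- libraries in which it was high, so its calls are conditional on the values compared. Of all genes, 0.936% (129, of which 39 higher in Gfra2-/-) passed an FDR under 0.1. With scaling to the spike-in RNAs 44 genes passed, 43 of them higher. Hoxb4 (log2 fold change -1.35, SE 0.85, edgeR FDR = 0.584) and Hoxa5 (-1.34, SE 0.87, edgeR FDR = 0.601) were not called.

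The corresponding fit of compartment over both genotypes called 0 members and 8.12% of genes at an unadjusted p under 0.05, and 4 genes (0.029%) at an FDR under 0.1. Hoxa5 had a log2 fold change of -1.39 (SE 0.85, edgeR FDR = 0.722) and Hoxa3 one of -1.57 (SE 1.21, edgeR FDR = 0.778) in endosteal against central libraries. Hoxb2 lay furthest from 0 and the other way, at 2.15 (SE 1.24, edgeR FDR = 0.694), a fitted value of the same kind.

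Among the noncoding RNA genes of the 2 clusters, Hoxaas2 was the one that passed the FDR in the genotype fit over both compartments, and it is described here after its values were seen. Hoxaas2 lies on the opposite strand at chr6:52165674-52169564, and 503 of its 3361 exon bases lie inside exons of Hoxa3. WT libraries held 1, 1, 0 and 0 reads in endosteal and 0 in each central library, while libraries labelled Gfra2-/- held 90, 156, 110 and 1 reads in endosteal and 231, 3 and 149 reads in central BM. Of the 7 Gfra2-/- libraries, 5 thus had 90 reads or more, and endosteal library D and central library B resembled the WT libraries. In central BM the Gfra2-/- group, with 383 reads and 11.8 CPM, was at least 33.2-fold above the 0.355 CPM that 3 reads over the WT group would be worth. The edgeR test over both compartments gave FDR = 0.0299, with a fitted log2 fold change of 7.20 (SE 1.40) that depends on the prior count. With 2 reads over the 8 WT libraries, Hoxaas2 passed the filter on low counts only through the Gfra2-/- libraries in which it was high, so this call is conditional on the values it compares, and without a filter the FDR was 0.0645. The call was lost with the libraries that passed the quality cut-offs (log2 fold change 7.12, FDR = 0.127) and with the libraries with more spike-in reads (6.96, FDR = 0.238), where the fitted difference was nearly as large. Without endosteal Gfra2-/- library A, B or C it did not pass the filter and was not tested.

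Hoxa3, with which Hoxaas2 shares exon bases, had 255, 51, 28 and 0 reads in endosteal and 218, 214 and 1 reads in central libraries labelled Gfra2-/-. Libraries A of both compartments were high in Hoxaas2 and in Hoxa3, while central library C had 149 Hoxaas2 reads beside 1 Hoxa3 read and central library B 3 beside 214. Hoxb5os, antisense to Hoxb5, had a mean of 2.94 CPM and Hoxaas3, antisense to Hoxa3 and Hoxa7, 2.45 CPM over the 15 libraries, and neither was called in the 7 comparisons. The list of 10 noncoding RNA genes had no further call at an unadjusted p under 0.05.

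**Figure D5:**
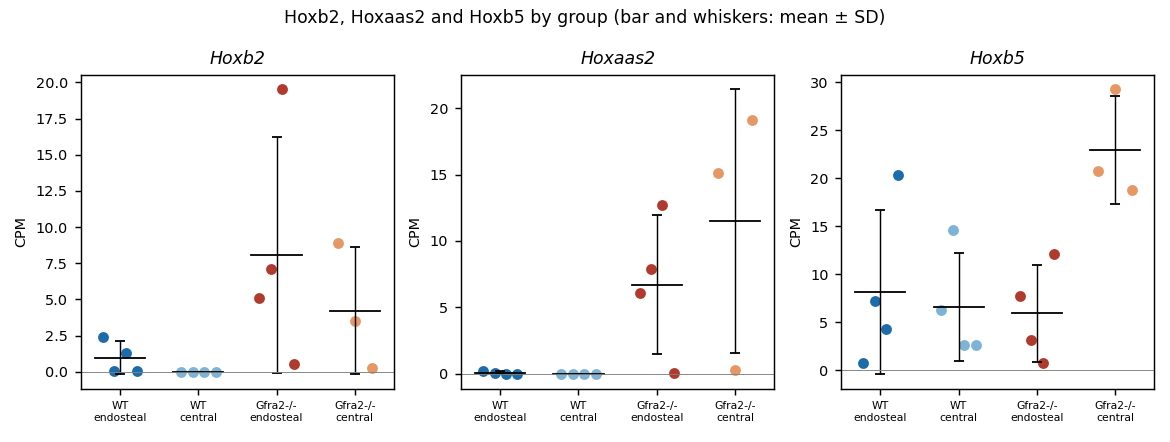
Points give CPM of Hoxb2, Hoxaas2 and Hoxb5 in each library by group, with the mean as a bar and the SD as whiskers. WT libraries stay at or below 2.44 CPM for Hoxb2 and at or below 0.244 CPM for Hoxaas2, and in each of these genes at least 1 Gfra2-/- library of either compartment lies within 0.526 CPM of 0.

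The cofactors and regulators of the clusters are given by genes of each list with the highest mean CPM, which is not divided by gene length. Among 11 TALE cofactor genes, Meis1 had 562 ± 111 and Pknox1 86.1 ± 66.9 CPM (SD, n = 15). Tgif2, a TALE repressor, was called at an unadjusted p under 0.05 in the genotype comparison in endosteal HSCs (edgeR FDR = 0.392), where the WT group held 0 reads and the group labelled Gfra2-/- 183, so that it passed the filter on low counts only through the group where it was high. It was also called in the interaction and in the genotype fit over both compartments, where Pbx2 was called in the lower direction (log2 fold change -1.26, SE 0.47, edgeR FDR = 0.289). Genes of these lists other than the most abundant 3 and those past the FDR were named after their values were seen. None of the 11 genes passed an FDR of 0.1 in the 7 comparisons.

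Among 22 activators of the trithorax and MLL group, Npm1 (nucleophosmin) had 486 ± 150, Kmt2a 313 ± 73.0 and Mllt3 287 ± 125 CPM (SD, n = 15). Npm1 was lower in libraries labelled Gfra2-/- in the fit over both compartments (log2 fold change -0.79, SE 0.15, edgeR FDR = 0.0299). This call was lost with the libraries with more spike-in reads, where 0 genes passed in that comparison. With scaling to the spike-in RNAs 1 gene was called lower, against 90 in the main fit. Npm1 was the 1 gene of the 3 regulator lists to pass the FDR. In the main fit over both compartments Mllt3 was called at an unadjusted p under 0.05 in the higher direction and Ash2l, Mllt1 and Npm1 in the lower. These were 4 of 19 genes tested, beside 11.5% of all genes, with a median log2 fold change of -0.25 beside 0.07 over all genes. Mllt3 had log2 fold changes of -0.99 (SE 0.21, edgeR FDR = 0.805) between endosteal and central libraries labelled Gfra2-/- and 0.78 (SE 0.35, edgeR FDR = 0.555) between the genotypes in central HSCs.

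Of 18 Polycomb genes, those with the highest mean CPM were Rbbp7 (237 ± 72.7 CPM), Rbbp4 (164 ± 77.2 CPM) and Ezh2 (111 ± 35.6 CPM; SD, n = 15), and all 18 were tested in each comparison. Ezh1, an enzymatic subunit of Polycomb repressive complexes, was called at an unadjusted p under 0.05 in endosteal HSCs, higher in libraries labelled Gfra2-/- (log2 fold change 2.15, SE 0.51, edgeR FDR = 0.574). It was also called between the WT compartments, in the lower direction (-1.85, SE 0.75, edgeR FDR = 0.587). Ezh2 was called between the compartments of libraries labelled Gfra2-/- (0.99, SE 0.40, edgeR FDR = 0.9995). None passed the FDR.

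Genes known as targets of HOXA9 and MEIS1 in blood progenitors included Lmo2 (1062 ± 151 CPM), Kit (697 ± 148 CPM) and Cdk6 (642 ± 270 CPM; SD, n = 15). In the genotype fit over both compartments, 2 of these 20 genes were called at an unadjusted p under 0.05 in the higher direction, Flt3 and Myc, and 2 in the lower, Pim1 and Sox4, beside 11.5% of all genes tested. Sox4 had a log2 fold change of -1.83 (SE 0.53, edgeR FDR = 0.152). The median over the 20 genes was 0.02 beside 0.07 over all genes tested, and no gene of the list passed the FDR in the 7 comparisons.

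By Spearman's rho over the 15 libraries on log2(CPM + 1), among 11960 genes with at least 10 reads in 8 libraries, the genes most like Hoxa9 were Rab21 (0.843), Abhd10 (0.836) and Wdr26 (0.811). Those most like Hoxb5 were Ero1lb (0.882), Arrdc3 (0.879) and Cers6 (0.857). These are descriptions over libraries that share differences in depth and group.

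Markers of other cells moved with some of the groups and libraries. The summed level of 8 B cell markers was 2072 CPM in endosteal Gfra2-/- library D, with 613 CPM of Cd79b, against 34.8 to 91.0 CPM in the other 3 libraries of that group. It was 431 CPM in central WT library D, 353 CPM in central Gfra2-/- library C and 11.8 to 132 CPM in the remaining libraries of the other groups. In the genotype fit over both compartments, 3 of the 6 B cell markers tested, Cd79a, Ebf1 and Vpreb1, were called higher in libraries labelled Gfra2-/- at an unadjusted p under 0.05, beside 11.5% of all genes (median log2 fold change 4.24 beside 0.07), and none passed the FDR. No WT library reached 10 reads of Cd79a or Ebf1, which held 3716 and 1048 reads in the endosteal Gfra2-/- group. These 2 genes passed the filter on low counts only through libraries in which they were high, so their calls are conditional on the values compared. Endosteal Gfra2-/- library D had 0.526 CPM of Hoxb2, 0.0876 CPM of Hoxaas2 and 0.0876 CPM of Hoxa5. It also had the lowest Hoxa7 (12.4) and Hoxb4 (0.526 CPM) of its group and no read of Hoxa3 or Hoxb6. The same library had the highest Hoxa9 (153), Hoxa10 (81.6) and Hoxb5 (12.1 CPM) of its group. Endosteal Gfra2-/- library B, at 91.0 CPM of B cell markers, had 0.303 CPM of Hoxa5. The summed level of 11 neutrophil and monocyte markers was 2994 CPM in central WT library C, 3420 CPM in central WT library D and 1840 CPM in central Gfra2-/- library C, and between 478 and 996 CPM in the other 12. Lyz2 was the most abundant of them (673 CPM on average). Central WT library D held 864 CPM of S100a8, 796 CPM of S100a9, 667 CPM of Camp and 389 CPM of Ngp, which are neutrophil granule and calprotectin genes, beside 563 CPM of Lyz2, while the defining markers Elane and Ctsg each had reads in only 1 library. The 9 erythroid markers summed to 887 ± 112 CPM in central WT, 1295 ± 163 CPM in endosteal WT, 1624 ± 588 CPM in central Gfra2-/- and 2481 ± 476 CPM in endosteal Gfra2-/- libraries, most of it Car2 (1453 CPM on average), and Klf1 had no read in 8 libraries. In endosteal HSCs 4 of the 6 erythroid markers tested, Car2, Hba-a1, Hbb-bs and Klf1, were called higher in libraries labelled Gfra2-/- at an unadjusted p under 0.05 (median log2 fold change 2.61 beside 0.03 over all genes), beside 6.69% of all genes, and none passed the FDR. Between the Gfra2-/- compartments Hbb-bs and Klf1 were called higher in endosteal libraries at that threshold, beside 4.79% of all genes. Only 3 of the 9 erythroid markers passed the filter on low counts between the WT compartments and between the genotypes in central HSCs. Klf1 and Hba-a1 reached 10 reads in 5 libraries each. Erythroid calls of markers that passed the filter through libraries in which they were high are conditional on the values compared. Endosteal Gfra2-/- library D held 329 CPM of Hbb-bs and 94.8 CPM of Hba-a1. Car2, a carbonic anhydrase, was higher in libraries labelled Gfra2-/- in the fit over both compartments (log2 fold change 0.88, SE 0.16, edgeR FDR = 0.0197). This call was lost with the libraries with more spike-in reads, where 0 genes passed in that comparison.

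The 8 megakaryocyte markers, led by Vwf (157 CPM), summed to 360 ± 288 to 458 ± 115 CPM in the 4 groups, and Gp6 had no read in 14 libraries. The 7 multipotent and lymphoid-primed markers, led by Notch1 (27.5 CPM), summed to 64.2 ± 24.1 CPM in endosteal and 80.1 ± 47.3 CPM in central WT libraries and to 129 ± 30.8 and 149 ± 45.5 CPM in those labelled Gfra2-/-, and Dntt had no read. The 8 T and NK cell markers (led by Nkg7, 49.0 CPM) and the 9 stromal and osteoblast markers (led by Col1a2, 8.07 CPM) summed to group means of 72.1 to 108 and 6.53 to 20.4 CPM, and Gzma had no read. The 6 endothelial markers, led by Emcn (97.8 CPM), summed to 134 ± 21.6 and 118 ± 38.5 CPM in the endosteal groups and to 242 ± 114 and 226 ± 133 CPM in the central groups, and Cdh5 had no read. In pools of sorted cells, fewer cells that express a gene and less RNA per cell cannot be told apart. The part that other cells and depth had in the values of the Hox genes was not tested.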

How the data were processed

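Per the labels and the study's methods, the authors sorted pools of 30 cells, amplified RNA by Smart-seq2, sequenced 50-base single-end reads, aligned them with GSNAP (the submitters' processing notes name build mm10) and counted reads per gene without strand with HTSeq (0.5.3p3). The deposited values are raw counts for 46078 genes, 92 spike-in RNAs and 5 summary categories, and only the genes entered library sizes and tests. Of 16 columns, 15 were matched to groups through the sample lists of the study, and 1 column without a match was not used. Their running codes are not stated to be replicate numbers, and p-values measure the spread between libraries. CPM are counts over TMM-scaled library sizes.

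Groups were compared with edgeR 4.0.16 in R 4.3.3 (quasi-likelihood test, filterByExpr, TMM, Benjamini-Hochberg adjustment over all genes tested, FDR 0.1), with an unadjusted p under 0.05 beside it. Alternatives were DESeq2 1.42.0, other size factors, filters, thinning, subsets of libraries, a term for the share of spike-in reads and a block for sets of column codes. Exon lengths and sequences came from GENCODE M21. Libraries with at least 0.5% spike-in reads are those with more spike-in reads. The 10 members and the gene lists were chosen with earlier results of these data known. All members were named, and of each further list the 3 genes with the highest mean CPM and those past the FDR. For likeness, the 3 genes with the highest Spearman correlation to Hoxa9 and Hoxb5 were named. Some genes and sequences that these rules would name are not reported here.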

Additional observations from a re-analysis of the deposited data

Results flagged for a closer look

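Of 31 sets of 4 libraries examined for a value far from the others, 4 held one. The rule flags about 1 in 20 sets of normally distributed values. These levels need not be so distributed, and a value beside 3 libraries at 0 is always flagged, so the count was not compared with chance. Hoxa9 had 176 CPM in endosteal WT library A, against 69.0 to 86.9 CPM in the other 3. Hoxa10 had 226 CPM in the same library (929 reads), against 25.2 to 34.0 CPM. Hoxb3 had 4.46 CPM (67 reads) in endosteal WT library B, against 0 to 0.655 CPM. Hoxb6 had 9.64 CPM (31 reads) in central WT library B and no read in the other 3.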

How the results depend on the processing

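The columns carry running codes that fall into sets of 4, 1 library of each group, except that the third set holds the C libraries without a central Gfra2-/- one and central Gfra2-/- C belongs to the set of the D libraries. The labels do not say that a set was paired. Same-set libraries deviated from their group means with correlations of -0.030 to 0.041 (21 pairs; -0.058 to 0.046 in 63 other pairs), and 5 of 15 libraries correlated best with their own set. With the sets as a replicate block, chosen after seeing the data, genes called were 5, 0, 1, 0, 0, 48 and 3 in the order of comparisons given next, and no member passed. The 4 libraries under 0.5% spike-in reads are one such set. No member passed an FDR of 0.1 under any setting run, except Hoxb2 in the genotype fit over both compartments with DESeq2 (FDR = 0.0555). Hoxb2 passed the filter on low counts there through the Gfra2-/- libraries in which it was high. In the order WT compartments, Gfra2-/- compartments, central genotypes, endosteal genotypes, interaction, genotype over both and compartment over both, genes called were 216, 156, 371, 132, 176, 815 and 302 with DESeq2, against 0, 0, 6, 0, 0, 129 and 4 with edgeR. Spike-in scaling gave 0, 15, 2, 6, 193, 44 and 3, and shifted the all-gene median (log2) to 1.58, -0.46, 1.75, -0.28, -2.18, 0.72 and 0.63. No filter gave 58, 0, 134, 0, 0, 66 and 30, at least 10 counts in every library 11, 0, 29, 0, 0, 231 and 22, and thinning 4, 0, 10, 0, 0, 128 and 10. Quality libraries gave 0, 0, 0, 0, 0, 37 and 1, libraries with more spike-in reads 0, 0, 1, 0, 0, 0 and 0, and an FDR of 0.05 0, 0, 0, 0, 0, 48 and 1. A term for the share of spike-in reads (high or low), chosen after seeing the data, gave 1, 0, 7, 0, 0, 93 and 4. All 4 groups in one fit gave 22, 0, 4 and 1 in the comparisons between groups, and DESeq2 size factors 8 for compartment over both. Of the 129, 39 were higher in Gfra2-/-, against 344 of 815 with DESeq2.

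Members at an unadjusted p under 0.05 became 1 in several settings, given here with all genes called at that threshold. With DESeq2 these were the Gfra2-/- compartments (1020 of 13860 genes) and endosteal genotypes (1300 of 12970). With spike-in scaling they were the Gfra2-/- compartments (644 of 13860) and central genotypes (1248 of 11772). Central genotypes also had 1 without a filter (2452 of 21759) and with more spike-in reads (1128 of 12206). With 4 groups in one fit, the WT compartments (1920 of 15416) and central genotypes (1867 of 15416) had 1. The term for the share of spike-in reads gave 1 in endosteal genotypes (861 of 12970). Quality libraries gave 2 in central HSCs (1270 of 13692 genes) and 1 in the interaction (1227 of 16507 genes). With 10 counts in every library (913 of 5477 genes) or thinning (1226 of 10148 genes), the genotype fit gave 0. Hoxb2 had too few reads to be tested there. Leaving out 1 library each gave 0 to 1 members, beside shares from 560 of 13347 to 1292 of 12011 genes. In the genotype fit it gave 1 to 1, beside 1303 of 14127 to 1601 of 13462 genes. Genes called ranged from 0 to 6 (WT compartments; 6 without endosteal A), 0 to 8 (central; 8 without Gfra2-/- C), 28 to 180 (genotype over both; 28 without central Gfra2-/- A, 180 without endosteal WT C) and 0 to 8 (compartment over both), and were 0 elsewhere.

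Between the WT compartments, spike-in scaling turned Hoxa9 to 0.24, Hoxa10 to -0.022, Hoxa3 to 0.58 and Hoxa5 to 0.60, and leaving out 1 library moved Hoxa10 from -1.10 (without endosteal A) to 0.80 (without central D), Hoxb3 from -4.52 (endosteal B) to -1.63 (central D) and Hoxa3 from -3.05 (endosteal C) to -1.04 (central A). Between the genotypes it moved central Hoxb4 from -3.66 (Gfra2-/- B) to -1.64 (Gfra2-/- C), endosteal Hoxb2 from 2.17 (Gfra2-/- C) to 4.06 (WT A) and endosteal Hoxa5 from -3.05 (Gfra2-/- A) to -1.09 (WT A), and central Hoxb5 reached 2.53 (WT B). Between the Gfra2-/- compartments Hoxa5 reached -3.17 (endosteal A), Hoxb5 in the interaction moved from -3.03 (central WT B) to -1.25 (endosteal WT D) and Hoxa3 in compartment over both reached -1.03 (central WT A). Hoxa9 moved from -1.03 (endosteal A) to -0.35 (central B) between the WT compartments, from 0.24 (central C) to 0.99 (central B) between the Gfra2-/- ones, to -1.28 (Gfra2-/- B) in central and from 0.17 (WT C) to 0.70 (WT A) in endosteal genotypes. In central HSCs spike-in scaling turned Hoxa9 to 0.25 and Hoxa3, Hoxa5, Hoxa7 and Hoxa10 from negative to positive. It also changed the sign of 3 members in each of the Gfra2-/- compartments and endosteal genotypes, 4 in the interaction, 2 in genotype over both and 3 in compartment over both. Hoxaas2 was not tested in 5 settings, where too few reads were left, and apart from the fit without a filter its tests rest on the libraries through which it passed one. By length, 2 members changed place with the longest transcript and 3 with unshared exon bases. The causes were not tested. Central WT libraries were the shallowest, and the part that depth had in what was detected there was not tested.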
